A study of Mus musculus with 10 samples.

Results

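The genes described here are 48 mouse genes that copy DNA or supply its nucleotides. They are a list of gene symbols put together by function, with earlier results of these data known. All 48 were measured, by 50 probes, among 15097 genes with a symbol and 20243 features in all. The 48 genes were sorted into 10 role groups: the MCM helicase, the origin recognition complex, licensing factors, origin firing factors, polymerases with primase, the sliding clamp with its loader, the single-strand binding protein RPA, Okazaki fragment joining, nucleotide supply and chromatin assembly.

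The cells were FDB1, a mouse myeloid progenitor line that needs interleukin-3 (IL-3) to grow. All carried the FI-Delta receptor mutant, which activates the signalling chain (the common beta chain) that the receptors for GM-CSF, IL-3 and IL-5 share. In the other line the same mutant also carried Y577F, a tyrosine replaced by phenylalanine, and this line is called Y577F here. RNA was taken from cells in medium with serum and IL-3 (0 h) and from cells that were washed and then kept without factor for 72 h. This gives 4 RNA groups, namely FI-Delta at 0 h, FI-Delta at 72 h, Y577F at 0 h and Y577F at 72 h, each with 2 cultures, as the design text states. On arrays with Y577F RNA in Cy5 the labels give the replicate numbers to the opposite lines, so which culture an RNA came from was read here as 1 and 2 for FI-Delta and 3 and 4 for Y577F, and results with a block for each RNA extract rest on that reading. The labels do not say whether a line is 1 clone. No group was kept for 72 h with IL-3, so loss of the factor and time in culture cannot be told apart.

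Before S phase, the origin recognition complex together with Cdc6 and Cdt1 loads the MCM helicase onto origins, and geminin keeps Cdt1 from loading it again. The kinase Cdc7 with Dbf4, and the Cdc45 and GINS proteins, then turn the loaded helicase into a moving fork. Polymerase alpha with primase starts each strand, polymerases delta and epsilon extend it on the Pcna clamp, and ribonucleotide reductase, dUTPase, thymidylate synthase and thymidine kinase supply the deoxynucleotides. Many of these genes are known E2F targets whose RNA rises at entry into S phase, so in cell populations their RNA is often read as a mark of cycling cells. In RNA from whole cultures, as here, fewer cycling cells and less RNA per cell cannot be told apart.

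The promoters were read first, because many of these genes are known E2F targets. RefSeq promoters of build GRCm38.p6, from 250 bases before to 50 after each start, were matched for 41 of the 48 genes (50 promoters). Pole, Gins1, Rfc2, Gins2, Mcm4, Gmnn and Prim2 were not among them. Both strands were searched for 4 E2F words (TTTCCCGC, TTTCGCGC, TTTGCCGC and TTTGGCGC), which can overlap each other. At least 1 was found in 14 of the 50 promoters (28.0%), against 2.26% of all 32851 promoters. The CCAAT word of NF-Y was in 52.0% against 37.4%, and the TTTGAA word, known as the CHR element, in 16.0% against 17.9%. An E2F word together with CCAAT was in 16.0% against 0.962%. A match is a description of the letters only.

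The stretches before the start of 4 of these genes are shown, with the E2F words in capitals, to set the word beside the measured change. Each is written 5′ to 3′ on the strand of its gene. Mcm6, Mcm5 and Rfc3 were lower at 72 h in Y577F cells, and Gins3, whose promoter also holds a word, was not called there. Cdc6, Mcm7 and Orc1 also hold a word and were not called there, at log2 changes of 0.03, -0.02 and -0.21. Their promoters are not shown. Mcm6 lies at chr1:128359706-128359875 on the minus strand, Mcm5 at chr8:75109339-75109467 on the plus strand, Rfc3 at chr5:151651209-151651378 on the minus strand and Gins3 at chr8:95633389-95633558 on the plus strand. The longer runs of capitals in Mcm6 and Mcm5 each hold overlapping words, 1 on each strand.
Mcm6: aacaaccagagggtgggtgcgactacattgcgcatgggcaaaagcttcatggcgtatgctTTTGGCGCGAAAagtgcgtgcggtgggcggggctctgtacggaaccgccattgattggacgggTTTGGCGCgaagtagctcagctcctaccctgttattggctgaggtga
Mcm5: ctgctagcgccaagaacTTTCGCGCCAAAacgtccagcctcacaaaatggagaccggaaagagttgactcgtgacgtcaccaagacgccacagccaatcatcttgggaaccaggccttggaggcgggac
Rfc3: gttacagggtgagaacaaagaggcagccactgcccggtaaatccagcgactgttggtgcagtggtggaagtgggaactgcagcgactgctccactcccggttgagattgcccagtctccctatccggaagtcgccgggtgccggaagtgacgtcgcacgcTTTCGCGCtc
Gins3: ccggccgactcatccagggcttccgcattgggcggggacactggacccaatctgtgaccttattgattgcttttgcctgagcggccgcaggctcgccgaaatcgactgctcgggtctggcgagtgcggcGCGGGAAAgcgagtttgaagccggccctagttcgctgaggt

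RNA pairs were hybridised to 10 two-colour spotted oligonucleotide arrays. For the time comparison there were 3 arrays of FI-Delta cells (arrays 1 and 2 carried 1 pair of RNAs with the dyes exchanged) and 2 of Y577F cells. For the comparison of the lines there were 3 arrays of 0 h RNA and 2 of 72 h RNA. Values are the authors' normalised log2 ratios, turned to read 72 h over 0 h or Y577F over FI-Delta, and every direction given here would reverse if all signs were turned. After turning, arrays of the same comparison correlated over all features at 0.63 (Y577F time), at 0.519 (72 h), between 0.236 and 0.539 (FI-Delta time) and between -0.0374 and 0.357 (0 h). Ratios hold no level and intensities were not analysed here, so how strongly a gene or a cell type's defining markers were expressed is unknown. Precision is limited by how many arrays there were. A log2 change below is the limma estimate ± its standard error (SE) over 9 hybridisations, and a gene was called at a Benjamini-Hochberg adjusted p under 0.05 over all 20243 features. Several arrays share an RNA extract, and the p-values take no account of this.

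Over 72 h without factor in Y577F cells, 29 of the 48 genes were lower and 0 higher, against 8.75% of all features lower and 9.28% higher. Their median log2 change was -0.45, against 0.01 over all features. On the arrays themselves, 41 genes lay below 0 on both and 0 above 0 on both, against 29.7% of features below 0 on both. The median of the 48 genes was -0.43 on array 1 and -0.38 on array 2. Of the 48 genes, only Dut and Mcm3 had a log2 change below -1.

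**Figure D1:**
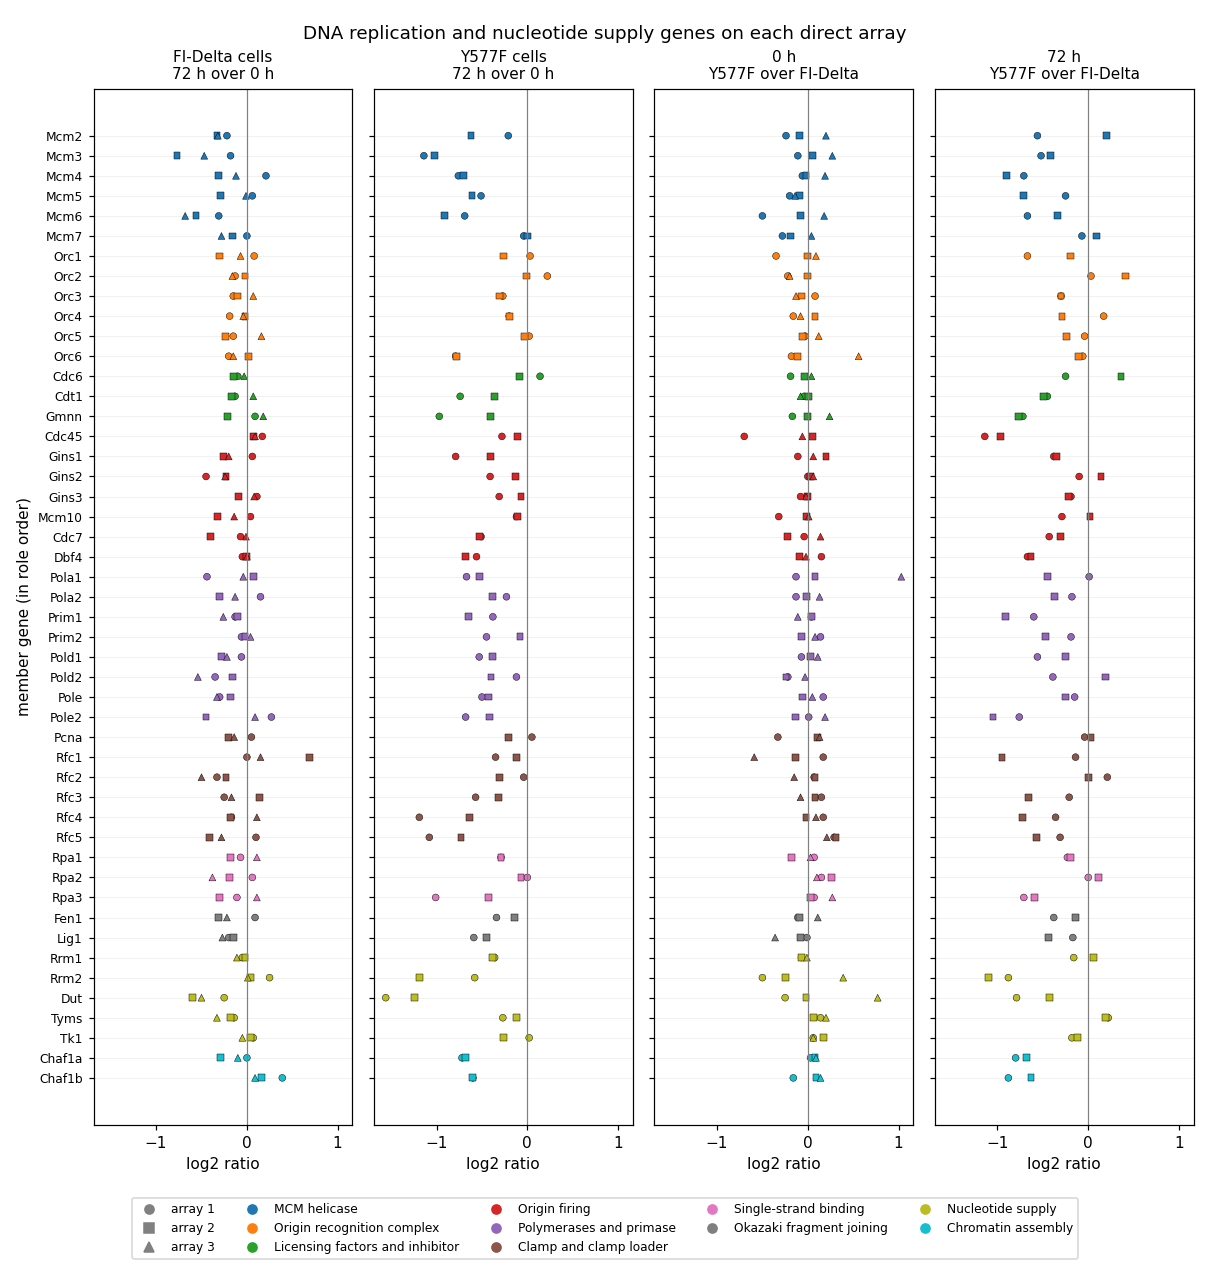
Log2 ratio (horizontal axes) of each of the 48 genes (vertical axis, in role order) on every direct array, in 1 panel per comparison; the marker shape gives the array and the colour the role group. In the panel of the Y577F time arrays 41 genes lie left of 0 on both arrays, in that of the 72 h arrays 34, and in that of the 0 h arrays 4 lie left of 0 on all 3.

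Among the loaders of the fork, the MCM helicase had 4 of 6 subunits lower in Y577F cells, with a median of -0.65. Mcm3 read -1.14 and -1.02 on the time arrays 1 and 2, a log2 change of -1.06 ± 0.08 (adjusted p = 4.5e-06). Mcm6 read -0.69 and -0.91, and its change was -0.84 ± 0.12 (adjusted p = 0.00047). Mcm4 read -0.76 and -0.70, and its change was -0.78 ± 0.09 (adjusted p = 9.2e-05). All 3 were well below 0 on both arrays, and Mcm5 fell as well (-0.52 ± 0.10, adjusted p = 0.0026). The remaining subunits of the same ring, which is loaded as a whole, did not pass the test. Mcm2 read -0.21 and -0.62 (-0.42 ± 0.13) and lay at the threshold, and Mcm7 read -0.04 and 0.00 (-0.02 ± 0.09).

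The origin recognition complex, which marks origins, had 2 of 6 subunits lower, with a median of -0.19. Orc6 changed by -0.66 ± 0.14 (adjusted p = 0.006) and Orc3 by -0.29 ± 0.08 (adjusted p = 0.029), while Orc1, Orc2, Orc4 and Orc5 lay between -0.21 and 0.14. The licensing factor Cdt1 fell by 0.53 on the log2 scale and its inhibitor geminin (Gmnn) by 0.70, with adjusted p of 0.0013 and 0.00038. Cdc6, which works beside Cdt1, read 0.14 and -0.09 and its estimate was 0.03 ± 0.11. Of the 7 origin firing factors, 4 were lower: the GINS subunits Gins1 (-0.59 ± 0.09) and Gins2 (-0.28 ± 0.08), and both parts of the firing kinase, Cdc7 (-0.51 ± 0.09) and Dbf4 (-0.63 ± 0.08). Gins3, Mcm10 and the helicase cofactor Cdc45 were not called, at -0.17, -0.13 and -0.34. The probes of 2 of these genes disagreed: 1 Gins2 probe changed by -0.55 (adjusted p = 0.0067) and the other by -0.02, and 1 Mcm10 probe by -0.52 (adjusted p = 0.00076) and the other by 0.25.

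At the fork, 6 of 8 polymerase and primase genes were lower in Y577F cells, with a median of -0.49. They were the catalytic and second subunits of polymerase alpha, Pola1 (-0.62 ± 0.18) and Pola2 (-0.32 ± 0.09), the primase subunit Prim1 (-0.63 ± 0.10), the polymerase delta subunit Pold1 (-0.51 ± 0.08), and the polymerase epsilon subunits Pole (-0.48 ± 0.08) and Pole2 (-0.65 ± 0.11). Prim2 (-0.30 ± 0.10) and Pold2 (-0.28 ± 0.12) did not pass the test. The loader that opens the clamp had 3 of its 5 subunits lower. Rfc5 read -1.08 and -0.73 on the arrays, a change of -0.91 ± 0.09 (adjusted p = 4.4e-05). Rfc4 read -1.19 and -0.64, a change of -0.85 ± 0.12 (adjusted p = 0.00054). Both were below 0 on every array of this comparison, and Rfc3 changed by -0.48 ± 0.10. The clamp itself, Pcna, read 0.05 and -0.21 and its estimate was -0.09 ± 0.10.

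Of the 3 subunits of RPA, which coats single-stranded DNA, Rpa3 was lower (-0.75 ± 0.10) and Rpa1 (-0.26 ± 0.09) and Rpa2 (-0.12 ± 0.10) were not called. Both genes of Okazaki fragment joining were lower, the flap nuclease Fen1 at -0.29 ± 0.08 and the ligase Lig1 at -0.48 ± 0.09. Both subunits of CAF-1, which places histones behind the fork, were lower. Chaf1a read -0.72 and -0.68 on the 2 arrays, a change of -0.76 ± 0.08 (adjusted p = 4.7e-05), and Chaf1b changed by -0.60 ± 0.09 (adjusted p = 0.00046). The arrays were close to each other for both subunits.

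The 5 genes of nucleotide supply held the largest change of the 48 and also some of the smallest. Dut, the dUTPase that keeps uracil out of DNA, read -1.56 and -1.24, a change of -1.36 ± 0.13 (adjusted p = 3.1e-05) or a ratio 2.57 times lower. Rrm2, the small subunit of ribonucleotide reductase that is made in S phase, read -0.58 and -1.19 and changed by -0.86 ± 0.16 (adjusted p = 0.003). The large subunit Rrm1 changed by -0.29 ± 0.09 (adjusted p = 0.039). Thymidylate synthase (Tyms, -0.19 ± 0.08) and thymidine kinase (Tk1, -0.15 ± 0.08) did not pass the test. In the broad groups, 12 of 22 genes of origin licensing and firing were lower (median -0.38), 12 of 19 of the polymerases and their helpers (median -0.48) and 3 of 5 of nucleotide supply (median -0.29). The broad groups were not tested against each other.

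Of the 29 calls, 19 were kept under every alternative that was run, among them Mcm3, Mcm4, Mcm6, Rfc4, Rfc5, Dut and Chaf1a. The other 10 were lost without some single array. Without Y577F time array 1, the calls of Fen1, Gins2, Lig1, Orc3, Orc6, Pola1, Pola2, Rfc3 and Rrm1 were lost, at log2 changes from -0.65 to -0.25 and adjusted p from 0.069 to 0.24. Without Y577F time array 2, those of Fen1, Gins2, Orc3, Orc6, Pola1, Pola2, Rrm1 and Rrm2 were lost, and Rrm2 was then at -0.64 with an adjusted p of 0.056. Fen1, Gins2, Orc3, Pola1, Pola2 and Rrm1 also lost theirs without an array of another comparison. Of the 14 genes with an E2F word 10 were lower in Y577F cells (median -0.50), and of the 27 without, 14 (median -0.32). The other words went the other way. Of the 24 genes with CCAAT 11 were lower (median -0.32), and of the 17 without, 13 (median -0.51). Of the 7 with TTTGAA 3 were lower (median -0.34), and of the 34 without, 21 (median -0.48). None of these splits was tested.

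**Figure D2:**
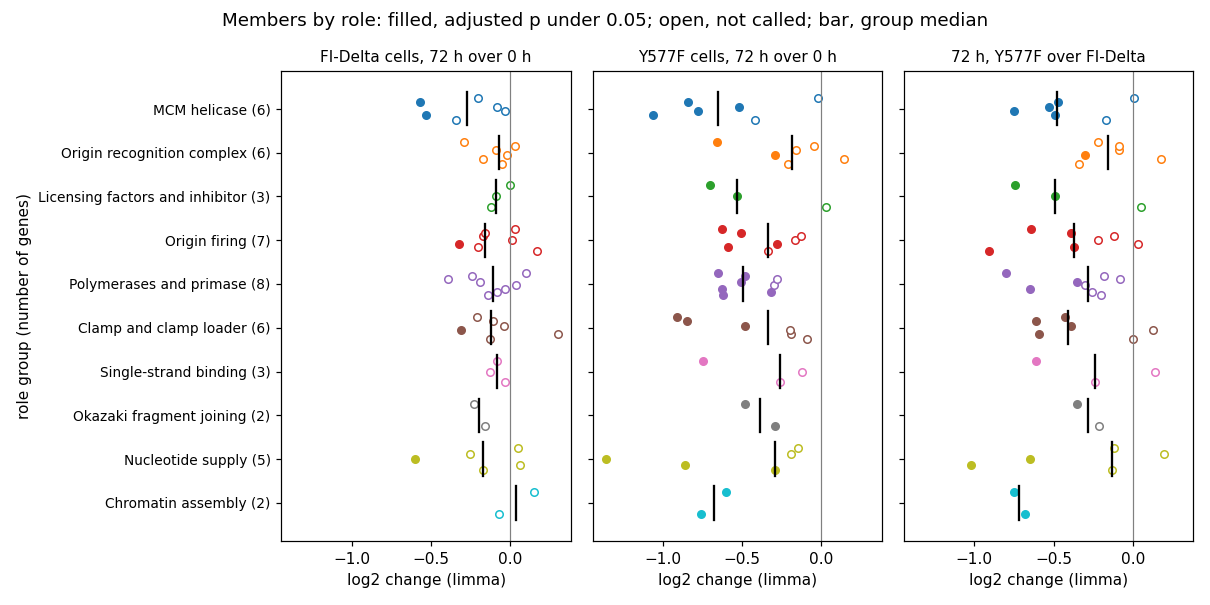
Log2 change from the limma fit (horizontal axes) of the genes of each role group (vertical axis, number of genes in brackets), in 1 panel per comparison, with a point for each gene and a bar for the group median. The medians of the polymerase, MCM helicase and chromatin assembly groups lie at -0.49, -0.65 and -0.68 in Y577F cells over 72 h and at -0.11, -0.27 and 0.04 in FI-Delta cells.

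Over the same 72 h in FI-Delta cells, 5 of the 48 genes were lower and 0 higher, against 2.97% of all features lower and 5.19% higher. The median log2 change was -0.12, against -0.01 over all features. On the arrays, 18 genes lay below 0 on all 3, against 17.2% of features, and Cdc45, Rrm2 and Chaf1b lay above 0 on all 3. At an unadjusted p under 0.05 there were 13 of the 48 genes, against 19.8% of features.

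The 5 were the dUTPase Dut, the helicase subunits Mcm6 and Mcm3, the GINS subunit Gins2 and the clamp loader subunit Rfc2. Dut read -0.25, -0.60 and -0.50 on arrays 1, 2 and 3, a change of -0.60 ± 0.14 (adjusted p = 0.021). Mcm6 read -0.31, -0.56 and -0.68, a change of -0.57 ± 0.13 (adjusted p = 0.016). Mcm3 read -0.18, -0.77 and -0.47, a change of -0.53 ± 0.08 (adjusted p = 0.0024). All 3 lay below 0 on every array of this comparison, with the dye-swapped arrays 1 and 2 of the same RNA 0.25 or more apart. Gins2 read -0.45, -0.23 and -0.24, a change of -0.32 ± 0.08 (adjusted p = 0.031). Rfc2 read -0.33, -0.23 and -0.50, a change of -0.31 ± 0.09 (adjusted p = 0.048). Of the 5, Rfc2 was the one not called in Y577F cells (-0.20 ± 0.08).

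The calls in FI-Delta cells were few and depended on single arrays. Without FI-Delta time array 3 only Mcm3 was called: Dut was then at -0.54 (adjusted p = 0.13), Mcm6 at -0.45 (adjusted p = 0.14), Gins2 at -0.32 (adjusted p = 0.15) and Rfc2 at -0.26 (adjusted p = 0.28). Leaving out 0 h array 1, Y577F time array 1 or 72 h array 2 left 2 genes called in each case. Dut then lost its call with adjusted p of 0.069, 0.052 and 0.057, and Mcm6 lost its call without 0 h array 1 (adjusted p = 0.052). Gins2 and Rfc2 also lost theirs without other arrays, with adjusted p up to 0.13. With arrays weighted by their fit 10 genes were called, of which Chaf1b (0.22, adjusted p = 0.038) and Rfc1 (0.31, adjusted p = 0.046) were higher. Giving every RNA extract its own fixed block, with the dye term dropped, left 2 residual degrees of freedom. In that fit 0 genes were called and 7 had an unadjusted p under 0.05.

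In FI-Delta cells the medians of the role groups ran from -0.27 to 0.04. The MCM helicase was lowest (median -0.27), with 2 of 6 subunits called lower and all 6 estimates below 0. Okazaki fragment joining (median -0.19, 0 of 2 called), nucleotide supply (-0.17, 1 of 5) and origin firing (-0.16, 1 of 7) followed. The polymerases and primase had 0 of 8 genes called (median -0.11), the origin recognition complex 0 of 6 (median -0.07) and chromatin assembly 0 of 2 (median 0.04). Rrm2 read 0.25, 0.04 and 0.01 on the 3 arrays (0.06 ± 0.17), Chaf1b 0.39, 0.16 and 0.09 (0.15 ± 0.09) and Cdc45 0.17, 0.07 and 0.09 (0.17 ± 0.13). These 3 genes went against the direction of the called ones on every array, and none passed the test. The highest estimate of the 48 genes was that of Rfc1 (0.30 ± 0.14, adjusted p = 0.27), which read -0.00, 0.69 and 0.15. Gmnn, Mcm4 and Dbf4, all lower in Y577F cells, were at 0.00 ± 0.10, -0.03 ± 0.09 and 0.03 ± 0.08. Both time comparisons called Dut, Gins2, Mcm3 and Mcm6 lower, Gins2 only as the mean of its probes. The Gins2 probe called in FI-Delta cells (-0.37, adjusted p = 0.035) was the one at -0.02 in Y577F cells, and the one called in Y577F cells was at -0.27 in FI-Delta cells (adjusted p = 0.24).

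**Figure D3:**
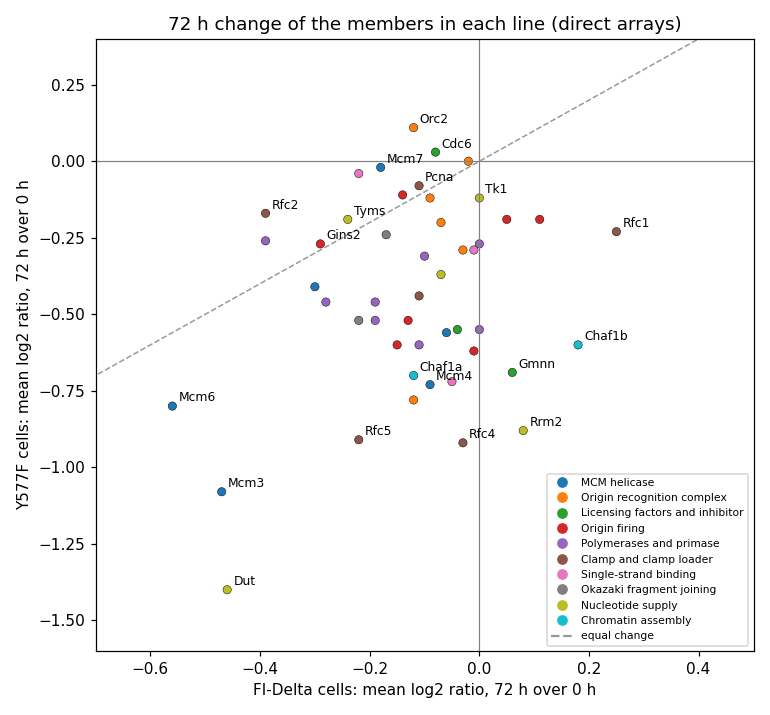
Mean log2 ratio of 72 h over 0 h on the direct arrays in FI-Delta cells (horizontal axis) and Y577F cells (vertical axis), with a point for each of the 48 genes coloured by role group and a dashed line where the changes would be equal. Dut, Mcm3 and Mcm6 are low on both axes, while Rrm2, Chaf1b, Gmnn and Mcm4 are near or right of 0 on the horizontal axis and low on the vertical one.

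At 0 h, with IL-3, none of the 48 genes was called between the lines by limma, against 0.934% of features higher and 0.484% lower in Y577F cells. At an unadjusted p under 0.05 there were 2, Cdc45 and Rfc5, against 12.1% of features. The median log2 difference was -0.02, against -0.01 over all features. On the 3 arrays 4 genes lay below 0 on all, against 14.0% of features, and Gins2, Rfc5, Rpa2, Rpa3, Tyms, Tk1 and Chaf1a lay above 0 on all. The share of features above 0 on every array was not counted, for this or any other comparison. The largest differences were those of the helicase cofactor Cdc45 and the polymerase subunit Pola1. Cdc45 read -0.70, 0.05 and -0.06 (-0.39 ± 0.11, adjusted p = 0.14), and Pola1 read -0.13, 0.08 and 1.03 (0.28 ± 0.16, adjusted p = 0.53). In each gene 1 array stood apart from the others. Array 3 had a median of 0.08 over the 48 genes, against -0.07 and -0.01 on arrays 1 and 2.

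At 72 h the lines were compared directly. In Y577F cells 24 of the 48 genes were lower than in FI-Delta cells and 0 higher, against 6.45% of features lower and 6.44% higher. The median log2 difference was -0.32, against 0.01 over all features. On the 2 arrays 34 genes lay below 0 on both, against 28.3% of features, and Orc2, Rfc2 and Tyms lay above 0 on both without passing the test (0.18, 0.13 and 0.20). The array medians were -0.29 and -0.33. Polymerases with primase had 3 of 8 lower, the MCM helicase 4 of 6, the clamp and its loader 4 of 6, origin firing 4 of 7, licensing 2 of 3, nucleotide supply 2 of 5, chromatin assembly 2 of 2, RPA 1 of 3, Okazaki fragment joining 1 of 2, and the origin recognition complex 1 of 6.

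Rrm2 of ribonucleotide reductase differed most at 72 h. It read -0.88 and -1.10 on arrays 1 and 2, a log2 difference of -1.02 ± 0.16 (adjusted p = 0.0013), which is 2.03 times lower in Y577F cells. The helicase cofactor Cdc45 read -1.14 and -0.97, a difference of -0.91 ± 0.12 (adjusted p = 0.00043). The polymerase epsilon subunit Pole2 read -0.76 and -1.05, a difference of -0.80 ± 0.11 (adjusted p = 0.00055). All 3 were below -0.7 on both arrays. Mcm4 read -0.71 and -0.90 (-0.75 ± 0.09), Chaf1b -0.88 and -0.63 (-0.75 ± 0.09), Gmnn -0.72 and -0.77 (-0.74 ± 0.10) and Chaf1a -0.80 and -0.68 (-0.68 ± 0.08), all with an adjusted p of 0.00039 or less. Dut read -0.79 and -0.43, a difference of -0.65 ± 0.13 (adjusted p = 0.0077). The spread between the arrays was widest for Dut among these 8.

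Of the 24 genes, 22 were also lower over 72 h in Y577F cells, a comparison that shares the Y577F 72 h RNA. The others were Cdc45, at -0.34 over time (adjusted p = 0.079), and the large clamp loader subunit Rfc1, at -0.59 ± 0.14 between the lines and -0.19 ± 0.14 over time. Fen1, Gins2, Orc6, Pola1, Pola2, Pole and Rrm1 were lower over time in Y577F cells and not called between the lines. Without 72 h array 2, 11 genes were called at 72 h. Dut was then at -0.65 (adjusted p = 0.074), and Cdc7, Cdt1, Gins1, Lig1, Mcm5, Mcm6, Orc3, Pold1, Rfc1, Rfc3, Rfc4 and Rfc5 lay between -0.51 and -0.24 with adjusted p from 0.052 to 0.32. Without 72 h array 1, 18 genes were called, and Cdc7, Lig1, Mcm6, Orc3, Pold1 and Rfc3 lost their calls. Lig1, Mcm6, Orc3 and Rfc3 also lost theirs without an array of another comparison. In the fit with fixed extract blocks, which left 2 residual degrees of freedom, 11 genes were called. Cdc45, Chaf1a, Chaf1b, Dbf4, Gmnn, Mcm4, Pole2, Prim1 and Rrm2 were called under every alternative that was run.

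The interaction of line and time asks whether the 72 h change differed between the lines. It was negative, meaning a lower change in Y577F cells, in 18 of the 48 genes and positive in 0, against 4.91% of features called negative and 4.33% positive. The median was -0.30, against 0.01 over all features. Chromatin assembly had 2 of 2 genes called, licensing 2 of 3, the MCM helicase 3 of 6, the clamp and its loader 3 of 6, origin firing 3 of 7, nucleotide supply 2 of 5, polymerases with primase 2 of 8, RPA 1 of 3, and the origin recognition complex and Okazaki fragment joining 0.

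Rrm2 had the largest difference in change, -0.92 ± 0.19 (adjusted p = 0.0099), and it came out at -0.96 from the time arrays alone and -0.87 from the line arrays alone. Dut was at -0.76 ± 0.15 (adjusted p = 0.01), with -0.93 and -0.78 from these array sets. Pole2 was at -0.75 ± 0.13 (adjusted p = 0.0039), with -0.55 and -0.93. The same quantity can thus be read along either side of the design, and both readings were negative for these 3. As the cultures were read here, both array sets carried the same RNA extracts, so these readings are not independent. Chaf1b (-0.75 ± 0.10), Mcm4 (-0.75 ± 0.10), Rfc4 (-0.73 ± 0.14), Rfc5 (-0.70 ± 0.11) and Gmnn (-0.70 ± 0.11) followed. Mcm6, one of the genes lower in both lines, had a difference of -0.28 ± 0.14 that did not pass the test, and the polymerase subunit Pold1 of -0.32 ± 0.09 (adjusted p = 0.058). Gins2 was at 0.04 ± 0.09 as the mean of probes that lay on opposite sides of 0, at 0.35 (adjusted p = 0.064) and -0.27 (adjusted p = 0.25).

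Of these 18 calls 0 were kept under every alternative that was run, against 19 of the 29 over time in Y577F cells. In the fit with fixed extract blocks, which left 2 residual degrees of freedom, 8 were called. From the time arrays alone, with no line array, 0 of the 48 genes were called in the difference and 19 had an unadjusted p under 0.05. Without 72 h array 2, 9 were called, and Rrm2 (-0.87, adjusted p = 0.073), Dut (-0.77, adjusted p = 0.059) and Rfc4 (-0.64, adjusted p = 0.071) lost their calls together with Cdc45, Cdt1, Gins1, Mcm5, Prim1 and Rfc3. Mcm3, Mcm4, Gmnn, Dbf4, Pole2, Rfc5, Rpa3, Chaf1a and Chaf1b were called without any single array. Cdc45, Cdt1, Gins1, Mcm5 and Rfc3 also lost their calls without other arrays.

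**Figure D4:**
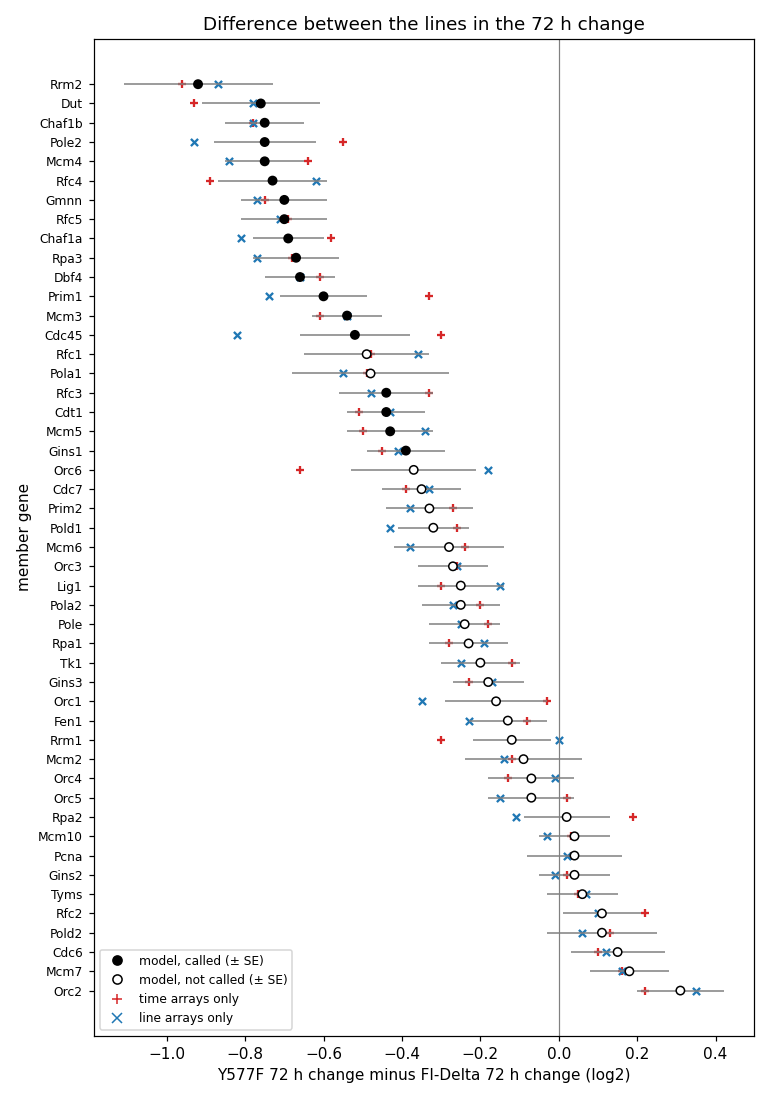
Difference between the lines in the 72 h change (horizontal axis, log2, Y577F minus FI-Delta) for each of the 48 genes (vertical axis), as filled points where called and open points where not, with bars of ± 1 SE, and crosses for the same difference read from the time arrays alone and from the line arrays alone. Rrm2 lies lowest at -0.92, and 18 points, all left of 0, are filled.

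Another 16 genes were called in none of the 5 comparisons: Mcm2, Mcm7, Orc1, Orc2, Orc4, Orc5, Cdc6, Gins3, Mcm10, Prim2, Pold2, Pcna, Rpa1, Rpa2, Tyms and Tk1. Mcm10 is counted there as the mean of its probes, of which 1 was called. The share of all features called in no comparison, or in more than 1, was not counted. Subunits of the same ring, complex or enzyme thus fell on both sides of the threshold. Probe sequences were not used here, and a probe may also detect related genes.

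Genes of the wider pathways were read from lists beside the 48. Of all features, 8.75% were lower and 9.28% higher over time in Y577F cells, and 2.97% and 5.19% in FI-Delta cells. At 72 h 6.45% were lower and 6.44% higher in Y577F cells. These shares stand beside the counts of every list below. In further replication and fork proteins, 19 of 25 measured genes were lower and 1 higher over 72 h in Y577F cells, against 1 lower and 0 higher in FI-Delta cells. Tipin of the fork protection complex changed by -1.01 ± 0.09 in Y577F cells, the histone chaperone Nasp by -0.93 ± 0.10, the mismatch repair protein Msh6 by -0.88 ± 0.11 and topoisomerase Top2a by -0.67 ± 0.09 (adjusted p from 1.1e-05 to 0.00033). In FI-Delta cells the 1 gene called was Topbp1, an activator of origin firing (-0.47 ± 0.10, adjusted p = 0.015). At 72 h 14 were lower in Y577F than in FI-Delta cells and 1 higher, with Tipin at -0.87, Top2a at -0.85, the histone chaperone Asf1b at -0.81 and Nasp at -0.67.

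In nucleotide synthesis, 9 of 26 measured genes were lower and 2 higher in Y577F cells over 72 h, against 8.75% and 9.28% of all features. In FI-Delta cells 5 were lower and 1 higher, against 2.97% and 5.19%. Samhd1, which breaks down deoxynucleotides, rose in both lines, by 0.83 ± 0.13 in Y577F and 0.77 ± 0.14 in FI-Delta cells (adjusted p = 0.0011 and 0.0047). Nme1, a nucleoside diphosphate kinase, fell in both, at -0.69 ± 0.08 and -0.53 ± 0.09. The thymidylate kinase Dtymk (-0.75 ± 0.12) and the folate enzyme Mthfd1 (-0.81 ± 0.11) were lower in Y577F cells, and the purine synthesis enzymes Gart (-0.66 ± 0.11) and Paics (-0.44 ± 0.10) in FI-Delta cells. Between the lines at 72 h, 4 were lower in Y577F cells and 1 higher. Dtymk was at -0.73, Mthfd1 at -0.56 and Adss of AMP synthesis at -0.51, while Dguok, the mitochondrial deoxyguanosine kinase, was at 0.46. The difference between the lines in the 72 h change was called negative in 2 (Mthfd1 and Dtymk) and positive in 1 (Dguok). Of all features 4.91% were called negative and 4.33% positive. The difference was not called for Gart or Paics, whose values in Y577F cells are not given here.

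Genes of S phase entry were called in both directions. Over 72 h in Y577F cells 9 of 27 were lower and 3 higher, against 8.75% and 9.28% of all features. In FI-Delta cells 1 was lower and 4 higher, against 2.97% and 5.19%. The D-type cyclin Ccnd2 rose in both lines, by 0.99 ± 0.08 in Y577F and 0.69 ± 0.09 in FI-Delta cells. In Y577F cells the transcription factor Myb changed by -1.12 ± 0.09, the E2F partner Tfdp1 by -0.72 ± 0.13 and the ubiquitin ligase subunit Skp2 by -0.57 ± 0.09. In FI-Delta cells Cdk4 changed by -0.66 ± 0.11, and the cyclin Ccnd3 and the Cdk inhibitor Cdkn2d both by 0.57. At 72 h 10 were lower and 4 higher in Y577F cells, with the S phase cyclin Ccna2 at -0.97, Tfdp1 at -0.95, Myb at -0.90 and Cdk2 at -0.77. Of 36 mitosis genes 28 were lower over time in Y577F cells (median -0.48) and 0 were called in FI-Delta cells by limma (median 0.06), where the largest estimates were Mki67 at 0.34 and Spc25 at 0.32. At 72 h 30 were lower in Y577F cells, with Ube2c at -1.14 and Tpx2 at -1.05.

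Lists of cell type markers were read in the same comparisons. Of 11 measured monocyte and macrophage markers, 10 were higher over 72 h in Y577F cells (median 2.09) and 10 in FI-Delta cells (median 0.90), and 9 were higher and 1 lower in Y577F than in FI-Delta cells at 72 h. Ctss, a lysosomal protease, rose by 3.14 in Y577F and 1.48 in FI-Delta cells. Of 13 neutrophil granule genes, 11 were higher over time in FI-Delta cells (median 1.29), 1 was higher and 6 lower in Y577F cells (median -0.41), and all 13 were lower in Y577F cells at 72 h (median -2.86). Of 10 mast cell and basophil markers 3 were lower and 1 higher over time in Y577F cells and 4 lower in FI-Delta cells. Of 6 erythroid and megakaryocyte markers 2 were lower and 2 higher in Y577F cells and 2 lower in FI-Delta cells. Of 7 lymphoid markers 0 were called by limma in either. At 0 h, where 0 of the 48 genes were called, 12 neutrophil granule genes were lower in Y577F cells. The part of these cell type changes in the values of the replication genes was not tested.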

How the data were processed

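Total RNA was labelled indirectly with Cy dyes, per the labels' protocols. The deposited values are the authors' normalised log2 ratios. The submitters' processing notes name limma without version. How background was corrected and ratios normalised is not given in the sources used here. Base 2 and the direction Cy5 over Cy3 were assumed. Of 23040 spots 1243 controls were left out. Probes with 1 gene symbol were averaged by gene, which gave 20243 features. The dye swap pair was averaged. limma 3.58.1 in R 4.3.3 was fitted with 3 group coefficients, a dye term, 5 residual and 6.34 prior degrees of freedom. Its steps were tested on simulated data with noise independent between arrays. The effect of shared RNA extracts was therefore not checked by the simulation. Tests were two-sided, with Benjamini-Hochberg adjustment over all features. Up to 8 called genes of each direct comparison, by size of change (2 where none was called), were given on every array. Of the genes against the common direction, only some were given on every array. Up to 4 called genes of each other list were named. Further genes were picked with their values known. The 48 genes and the lists were chosen with earlier results of these data known. The lists were further replication and fork proteins, nucleotide synthesis, S phase entry, mitosis, and markers of monocytes and macrophages, neutrophil granules, mast cells and basophils, erythroid and megakaryocyte cells, and lymphoid cells. Alternatives were other models, scaling, array weights and leaving out each array.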

Additional observations from a re-analysis of the deposited data

Results flagged for a closer look

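The 72 h change differed between the lines, by the interaction term of the limma fit, in 18 of the 48 genes, and was lower in Y577F cells in each. None of the 18 calls was kept under every alternative. In the fit with fixed extract blocks, which left 2 residual degrees of freedom, 8 genes were called. Without 72 h array 2 there were 9. From the time arrays alone 0 were called, and 19 had an unadjusted p under 0.05. Of the 18 genes, those in nucleotide supply were Rrm2 at -0.92 and Dut at -0.76. In the MCM helicase they were Mcm4 at -0.75, Mcm3 at -0.54 and Mcm5 at -0.43. In licensing they were Gmnn at -0.70 and Cdt1 at -0.44, and in origin firing Dbf4 at -0.66, Cdc45 at -0.52 and Gins1 at -0.39. Among polymerases and primase they were Pole2 at -0.75 and Prim1 at -0.60, and in the clamp loader Rfc4 at -0.73, Rfc5 at -0.70 and Rfc3 at -0.44. Rpa3 was at -0.67, and the CAF-1 subunits Chaf1b and Chaf1a were at -0.75 and -0.69. Dixon's test for an outlying array was not run, since each comparison had only 2 or 3 direct arrays.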

How the results depend on the processing

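Under the 17 alternatives, the 76 calls of the 48 genes (over all comparisons) gave 1292 values, of which 1100 kept the call, 192 lost it and 0 turned in sign. The labels' replicate numbers pair the arrays only through shared RNA extracts. A fit with a fixed block for each extract and no dye term left 2 residual degrees of freedom, against 5 in the main fit. The genes called were then 0 over time in FI-Delta cells (main value 5) and 24 in Y577F cells (29). They were 11 between the lines at 72 h (24) and 8 in the difference (18). With each comparison's own arrays alone the counts were 2, 24, 11 and 0. Without the dye term 3 genes were called in FI-Delta cells. With array weights 10 were called there, 2 of them (Chaf1b and Rfc1) higher, and Tyms was called higher at 72 h (0.20, adjusted p = 0.027); no other alternative that was run called a gene higher. Leaving out single arrays gave 1 to 5 calls in FI-Delta cells, 22 to 30 in Y577F cells, 11 to 24 at 72 h and 9 to 18 in the difference. At 0 h the limma count was 0 under every alternative, with 1 to 7 genes at an unadjusted p under 0.05. Depth per spot is unknown, and 2 or 3 arrays a comparison limit what can be detected. The cause of the changed counts was not tested.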
